A study of Homo sapiens with 9 samples.

Results

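The genes described here are those of the death ligands *FASLG* and *TNFSF10* and of their receptors *FAS*, *TNFRSF10A* and *TNFRSF10B*, in peak lists of open chromatin from Jurkat T cells. The peaks of 4 lists were joined where they overlapped or touched, and a joined region was taken as a gene's own when it overlapped the gene body or lay within 50 kb of its transcription start site (TSS, GENCODE on GRCh37). This gave 38 regions of 40703 on the autosomes, X and Y. There were 16 at *FASLG*, 6 at *FAS*, 5 at *TNFSF10*, 7 at *TNFRSF10A* and 4 at *TNFRSF10B*, and no region was counted for more than 1 of the 5 genes.

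Death ligands are trimeric proteins of the tumour necrosis factor superfamily. Fas ligand, the product of *FASLG*, binds FAS, and TRAIL, the product of *TNFSF10*, binds the receptors encoded by *TNFRSF10A* and *TNFRSF10B*. The bound receptors recruit the adaptor FADD and initiator caspases, and T cells use both ligands for killing and for their own contraction after activation. *FASLG* is known to be transcribed upon stimulation of T cells through the antigen receptor.

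FAIRE-seq sequences the DNA that stays free of protein after crosslinking and phenol extraction. The 9 samples of the Jurkat line (clone E6-1, a human T cell leukaemia line) were FAIRE-seq libraries and a total input control. Lists for 4 of the FAIRE-seq libraries were analysed. By their labels these are non-stimulated cells (NS DMSO), cells stimulated for 4 h with PMA and ionomycin, washed and rested for 1 day (SW DMSO), and the same states after 1 h with 15 uM rottlerin, a protein kinase C inhibitor (NS rottlerin and SW rottlerin). DMSO, the solvent, served as the control pre-treatment, and PMA with ionomycin stands in for antigen receptor signals. The methods give a shorter stimulation than the labels. A single library stands behind each list, so no difference below has a replicate check, no error can be given, and no test was made.

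The labels of 3 lists are in doubt. The methods describe peak calling in the DMSO samples alone, of which there are 4 (NS, ST, SW and RS, where ST is stimulated and RS re-stimulated). Joining the 4 lists used here gave 40731 regions on all contigs, exactly the number the methods give for that joined set. The 28 regions left out on other contigs match as well. The lists labelled rottlerin may thus come from DMSO samples. Lists are therefore named by their labels only, as the list labelled SW DMSO and so on. No value below is assigned to rest or to rottlerin. Which state each of the 3 belongs to was not tested here. Nothing contradicts the label of the NS DMSO list.

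The lists held 18977 (NS DMSO), 20132 (SW DMSO), 23835 (NS rottlerin) and 30409 (SW rottlerin) peaks, and read depth is unknown from them. A missing peak therefore means that none was called in that library, not that the chromatin was closed. Column 7 of each list is the fold enrichment over the total input, with a median between 4.03 and 4.08 in the 4 lists. Of 7 T cell marker genes, between 3 and 5 had a peak within 1 kb of the TSS in each list, *CD3D*, *CD3E* and *CD28* in all 4, and *CD2* in none. None of the B cell (3 genes), myeloid (3), erythroid (2) and hepatocyte (1) markers had one in any list.

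Of the 38 regions, 21 had no NS DMSO peak, against 53.5% of all regions, so the 5 genes together lay near the background (55.3%). Regions with a peak in every list but NS DMSO numbered 5 (7.08% of all regions), those of the NS DMSO list alone 3 (7.83%) and those of all 4 lists 9 (26.6%). Peaks were present at 17 of the 38 regions in the NS DMSO list, 20 in the list labelled SW DMSO, 25 in NS rottlerin and 29 in SW rottlerin, beside 46.5%, 49.3%, 58.4% and 74.5% of all regions.

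The ligand and receptor genes differed in which lists held their regions. The list labelled SW rottlerin had a peak at 20 of the 21 ligand regions (95.2%) and at 9 of the 17 receptor regions (52.9%), beside 74.5% of all regions. The list labelled SW DMSO had 15 of 21 (71.4%) and 5 of 17 (29.4%), beside 49.3%. NS rottlerin went the other way, with 13 of 17 receptor regions (76.5%). Its 12 of 21 ligand regions (57.1%) lay near the 58.4% of all regions. The NS DMSO list had a peak at 9 ligand (42.9%) and 8 receptor regions (47.1%), near the 46.5% of all regions. The receptor genes were not alike. The SW rottlerin list had a peak at 2 of 6 *FAS* regions (33.3%), 4 of 7 at *TNFRSF10A* (57.1%) and 3 of 4 at *TNFRSF10B* (75.0%). All of these are counts of regions in single libraries, and 5 genes supply them, *FASLG* alone 16 of the 21 ligand regions. The difference between ligands and receptors was therefore not tested.

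*FASLG* lies on chromosome 1 (chr1:172628243-172636016, plus strand, ENSG00000117560). It had 16 regions, where a coding gene had a median of 3.00 and 123 of 20163 coding genes (0.610%) had as many or more. Among the 13369 coding genes whose window was also 100 kb long, 10 had 16 or more (0.0748%). The nearest coding genes are *SUCO*, 47.3 kb to the left, and *TNFSF18*, 372 kb to the right, and *FASLG* had the nearest coding TSS for all 16 regions. The regions were spread over the window, 7 upstream or at the TSS and 9 downstream, with gaps of 0.738 to 17.8 kb (median 3.51 kb). One lay in an intron of *FASLG*, one held the TSS, and the other 14 lay between coding genes.

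The promoter region (chr1:172627975-172628328) held the TSS and had a peak in the lists labelled SW DMSO (column 7 of 3.75) and SW rottlerin (6.19), and none in the NS DMSO and NS rottlerin lists. The nearest NS DMSO peak was 3631 bp away. In the SW rottlerin list 6.68% of all peaks had a column 7 of 6.19 or more, while the SW DMSO value was unremarkable, at or below that of 62.7% of its list. The peak of the SW DMSO list ran from -260 to -45 bp and that of the SW rottlerin list from -268 to +85 bp. The part of the region before the TSS is shown because the region was called in 2 lists and not in the others (GRCh37, plus strand, chr1:172627975-172628242). Only its stretch from -260 to -45 bp lay under both peaks. Capitals mark letters of the ETS (CAGGAA, -266 to -261), GATA factor (TGATAA, opposite strand, -196 to -191) and NFAT (TGGAAA, -39 to -34) motifs.
*FASLG* promoter region: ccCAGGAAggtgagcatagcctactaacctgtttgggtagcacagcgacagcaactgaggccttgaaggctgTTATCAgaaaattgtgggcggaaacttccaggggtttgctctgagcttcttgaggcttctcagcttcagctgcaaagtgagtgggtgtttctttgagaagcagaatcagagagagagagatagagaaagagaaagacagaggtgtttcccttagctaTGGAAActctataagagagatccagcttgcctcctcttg
The ETS and NFAT letters lay inside the peak of the SW rottlerin list and just outside that of the SW DMSO list, and the GATA letters inside both.

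Upstream of the promoter, the *FASLG* region 11.8 kb before the TSS (chr1:172616222-172616703) had a peak in all 4 lists, with a column 7 of 3.38 in NS DMSO, 4.76 in SW DMSO, 3.26 in NS rottlerin and 6.02 in SW rottlerin. The lists labelled SW DMSO and SW rottlerin held the higher values, a pairing by label only, as these labels are in doubt. Its SW rottlerin value was 1.78 times that in NS DMSO, a ratio reached by 134 of the 14037 regions with both peaks (0.955%), and its SW DMSO value 1.41 times (379 of 12550, 3.02%). The NS rottlerin ratio was 0.967. The central 300 bases are shown because this was the *FASLG* region with the highest ratio to NS DMSO (GRCh37, plus strand, chr1:172616313-172616612), with the letters of a p53 half-site and of NFAT (TGGAAA, opposite strand) in capitals.
*FASLG* region 11.8 kb upstream: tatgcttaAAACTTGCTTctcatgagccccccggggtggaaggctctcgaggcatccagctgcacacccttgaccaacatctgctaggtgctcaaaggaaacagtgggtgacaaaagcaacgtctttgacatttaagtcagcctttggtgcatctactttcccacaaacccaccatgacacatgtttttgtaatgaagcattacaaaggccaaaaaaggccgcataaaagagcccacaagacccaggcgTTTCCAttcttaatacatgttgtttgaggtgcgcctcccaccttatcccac

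The SW rottlerin list also held the highest column 7 at some other *FASLG* regions. The region 49.5 kb downstream had 3.10 in NS DMSO, 3.87 in SW DMSO, no NS rottlerin peak and 5.29 in SW rottlerin, 1.71 times NS DMSO. The intronic region 3.81 kb after the TSS (chr1:172631843-172632268) had a column 7 of 3.79, 4.78, 4.22 and 5.62 in the NS DMSO, SW DMSO, NS rottlerin and SW rottlerin lists. Both were highest in the SW rottlerin list, and NS DMSO was lowest of the lists with a peak. In the region 11.8 kb upstream NS rottlerin was the lowest instead.

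Of the other *FASLG* regions in all 4 lists, the broad one 19.6 kb upstream (1299 bp) had 4.21, 3.92, 5.16 and 5.89 in that order of lists. The region 16.2 kb downstream (1070 bp) had 3.96, 4.22, 4.32 and 4.91. The one 11.8 kb downstream had 4.81, 4.61, 5.25 and 4.42, and so was among the *FASLG* regions whose SW rottlerin value lay under that of NS DMSO. In the region 20.4 kb downstream NS DMSO was highest at 4.51, with 3.43 in NS rottlerin, 3.61 in SW rottlerin and no SW DMSO peak.

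Of the 8 *FASLG* regions without an NS DMSO peak, 3 were shared by the SW-labelled lists only, a pattern of 6.26% of all regions. They were the promoter and the regions 31.2 kb upstream (4.27 in SW DMSO and 3.48 in SW rottlerin) and 21.3 kb upstream (3.78 and 4.76). A peak in every list but NS DMSO was present at 38.9 kb (3.55 in SW DMSO, 4.49 in NS rottlerin and 3.52 in SW rottlerin) and 40.6 kb downstream (4.48, 4.81 and 4.71). The region 45.5 kb downstream had peaks in NS rottlerin (3.64) and SW rottlerin (3.28). Regions 15.5 kb upstream (3.84) and 18.8 kb downstream (3.73) were in the SW rottlerin list alone, and a region 5.53 kb upstream in the NS DMSO list alone (3.75).

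In all, the SW rottlerin list had a peak at 15 of the 16 *FASLG* regions, SW DMSO at 11, NS rottlerin at 9 and NS DMSO at 8. Peaks of the SW rottlerin list at *FASLG* had a median width of 424 bp, beside 280 bp over that whole list, and those of NS DMSO 248 bp beside 265 bp. Of the 13 *FASLG* regions in at least 2 lists, SW rottlerin had the highest column 7 in 7 (53.8%, against 41.2% of all such regions) and NS DMSO in 1 (16.8% of all).

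**Figure D1:**
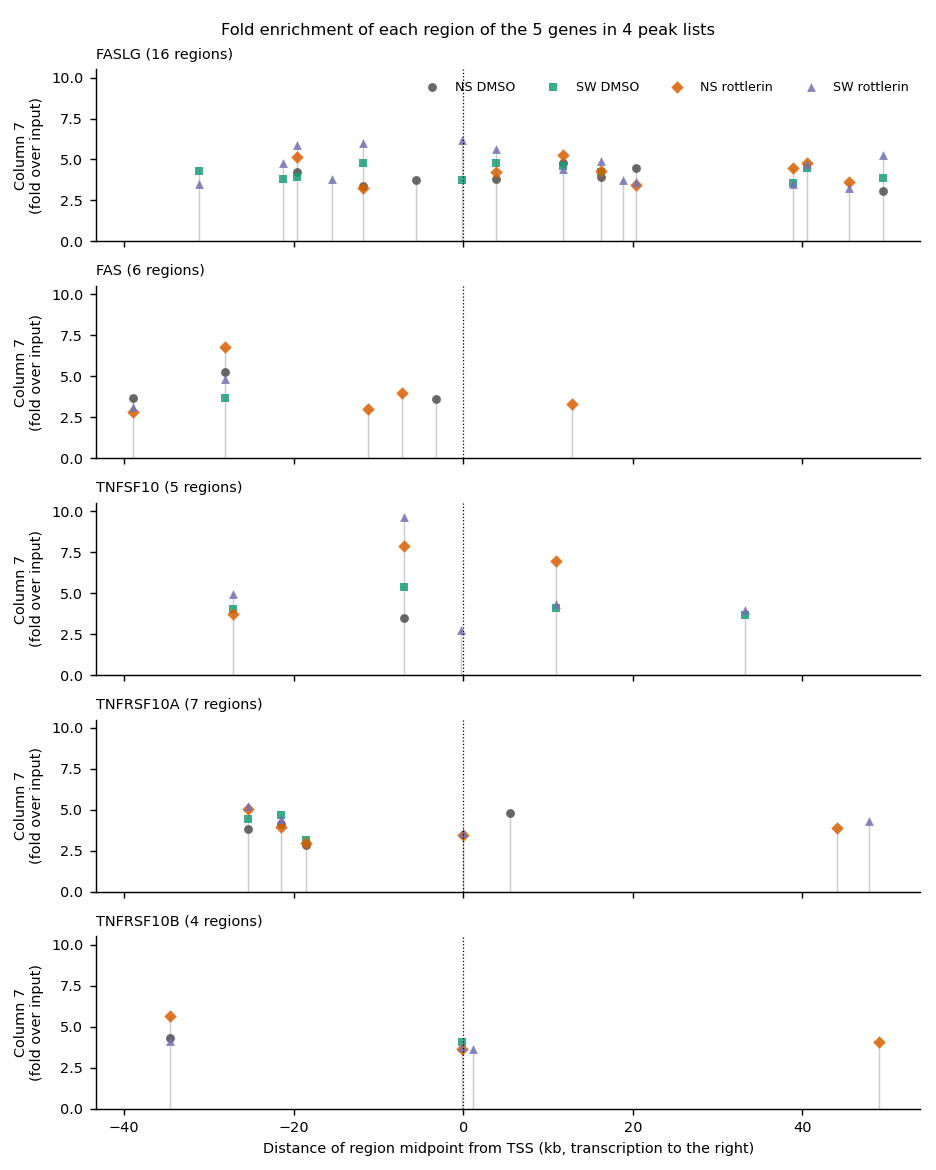
Column 7 (fold enrichment over total input, vertical axis from 0) of each region against the distance of its midpoint from the TSS in kb, 1 panel per gene, with a symbol for each list that had a peak. The 16 *FASLG* regions are spread over the window, the *TNFSF10* region 7.01 kb upstream reaches 9.65, and *FAS* has no symbol at its TSS.

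*TNFSF10* (chr3:172223298-172241265, minus strand, ENSG00000121858) had 5 regions, a number reached by 28.7% of coding genes, and 4 of the 5 had no NS DMSO peak. One region stood apart. It lay 7.01 kb upstream of the TSS, between genes (chr3:172247743-172248811), and had a peak in all 4 lists, with a column 7 of 3.46 in NS DMSO, 5.34 in SW DMSO, 7.88 in NS rottlerin and 9.65 in SW rottlerin. Only NS DMSO lay below the median of its list. The value of 9.65 was the 30th highest of the 30409 peaks in its list (0.0987%), and 7.88 the 165th in its own (0.692%).

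Relative to NS DMSO, the *TNFSF10* upstream region was 1.54, 2.28 and 2.79 times as high in the lists labelled SW DMSO, NS rottlerin and SW rottlerin. The ratio of 2.79 ranked 1 among all 14037 regions with a peak in both lists, and 2.28 ranked 5 among 13702. The ratio of 1.54 ranked 167 among 12550 (1.33% at or above it). The 3 ratios share the NS DMSO value, so a low value there raises all of them. That peak was among the weakest of its list, with a score of 16 (10 times the -log10 of the q-value), a score that 95.5% of the NS DMSO list reached or passed. The scores in the other lists were 67, 158 and 224.

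The peaks at the *TNFSF10* upstream region also differed in extent. The NS DMSO peak was 229 bp wide (-7410 to -7182 bp from the TSS) and the SW DMSO peak 311 bp, whereas the NS rottlerin peak covered 1042 bp (-7519 to -6478) and the SW rottlerin peak 689 bp (-7546 to -6858). The wider peaks extended towards the gene. A pair of stretches is shown in the direction of *TNFSF10* transcription, the one under the peaks of all 4 lists (chr3:172248447-172248675) and the central 300 bases of the joined region (chr3:172248127-172248426), which lie under the peaks of the NS rottlerin and SW rottlerin lists only (GRCh37, minus strand). Capitals mark GATA factor (TGATAA on either strand) and RUNX (TGTGGT) letters in the first and NFAT letters (TGGAAA, opposite strand) in the second.
*TNFSF10* upstream region, under 4 peaks: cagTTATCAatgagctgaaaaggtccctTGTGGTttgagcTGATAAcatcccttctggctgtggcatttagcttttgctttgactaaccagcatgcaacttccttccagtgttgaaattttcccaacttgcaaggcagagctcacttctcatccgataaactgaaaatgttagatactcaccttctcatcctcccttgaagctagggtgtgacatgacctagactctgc
*TNFSF10* upstream region, under 2 peaks: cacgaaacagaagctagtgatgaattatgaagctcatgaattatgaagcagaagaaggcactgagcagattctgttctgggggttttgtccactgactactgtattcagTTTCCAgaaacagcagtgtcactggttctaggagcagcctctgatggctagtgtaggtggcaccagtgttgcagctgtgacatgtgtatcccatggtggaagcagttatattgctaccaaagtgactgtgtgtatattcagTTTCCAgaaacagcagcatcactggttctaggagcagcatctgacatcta
The second stretch held the run TATTCAGTTTCCAGAAACAGCAG, of 23 bases, at 2 places 141 bp apart, each with the NFAT letters inside it. The longest run found at 2 places in the first stretch had 10 bases.

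**Figure D2:**
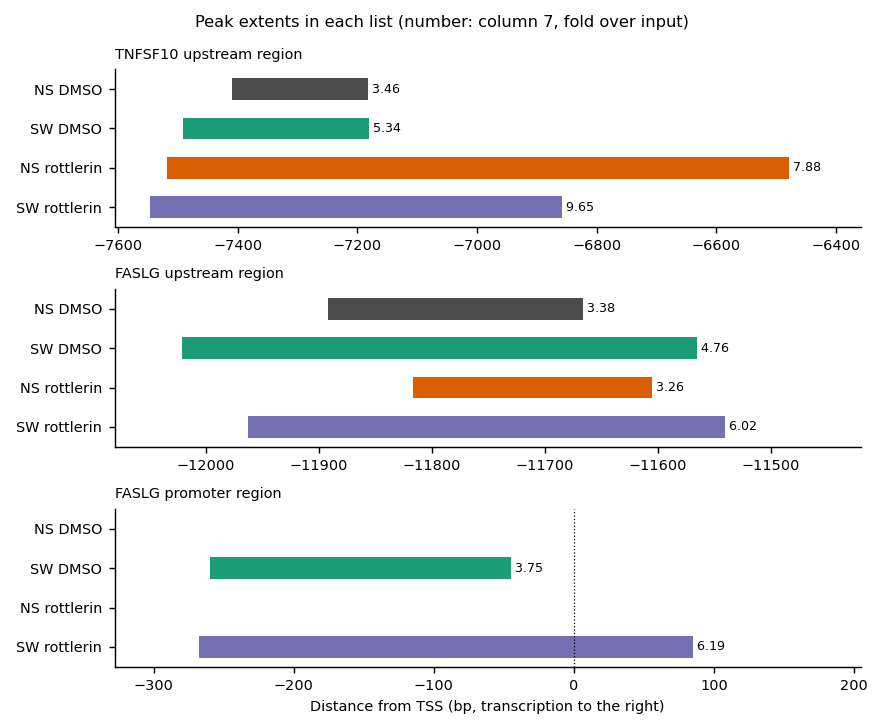
Extent of the peak in each list (bars) as distance from the TSS in bp for the *TNFSF10* region 7.01 kb upstream, the *FASLG* region 11.8 kb upstream and the *FASLG* promoter, with column 7 beside each bar. The peaks labelled NS rottlerin and SW rottlerin at *TNFSF10* extend towards the gene past the 229 bp of the NS DMSO peak, and the *FASLG* promoter has bars in the 2 SW-labelled lists only.

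The second strongest *TNFSF10* region lay in an intron 11.0 kb after the TSS. It had no NS DMSO peak, the nearest being 17864 bp away, and a column 7 of 4.07 in SW DMSO, 6.94 in NS rottlerin and 4.35 in SW rottlerin. The NS rottlerin value was high for its list (2.43% of peaks at or above it), and the others were near their medians.

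Of the remaining *TNFSF10* regions, the one 27.2 kb upstream was also in every list but NS DMSO, with 4.00 in SW DMSO, 3.70 in NS rottlerin and 4.92 in SW rottlerin. The region 33.2 kb downstream, past the end of the gene, was in the SW-labelled lists only (3.63 and 3.99). Near the TSS, 0.302 kb upstream, a peak was called in the SW rottlerin list alone (2.77, with a score of 12). The *TNFSF10* promoter was thus the weakest of the gene's regions.

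*FAS* (chr10:90750414-90775542, plus strand, ENSG00000026103), the receptor of Fas ligand, had 6 regions and none within 1 kb of its TSS in any list, as was the case for 55.1% of coding genes. All 6 lay in gene bodies, 5 of them in introns of *ACTA2*, a smooth muscle actin gene that overlaps the *FAS* promoter on the other strand. 2 of these 5 lay in an intron of *STAMBPL1* as well. The region 28.1 kb upstream (chr10:90722129-90722429) was the *FAS* region in all 4 lists, with 5.23 in NS DMSO, 3.67 in SW DMSO, 6.81 in NS rottlerin and 4.81 in SW rottlerin. The lists labelled NS DMSO and NS rottlerin were the higher ones, as at the *FASLG* region 11.8 kb downstream, again a pairing by label only. The SW DMSO ratio of 0.702 was the lowest of any region of the 5 genes (96.4% of shared regions at or above it). Its central 300 bases are shown for comparison with the ligand regions (GRCh37, plus strand, chr10:90722129-90722428), with capitals for GATA factor (TGATAA, opposite strand) and RUNX letters (TGTGGT, on either strand).
*FAS* region 28.1 kb upstream: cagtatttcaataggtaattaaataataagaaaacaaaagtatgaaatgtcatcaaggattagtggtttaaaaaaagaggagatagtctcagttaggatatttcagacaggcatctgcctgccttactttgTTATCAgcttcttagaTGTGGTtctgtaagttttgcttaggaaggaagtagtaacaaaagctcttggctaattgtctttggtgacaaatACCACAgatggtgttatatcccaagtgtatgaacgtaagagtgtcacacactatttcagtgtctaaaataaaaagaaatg

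The other *FAS* regions were present in few lists. The one 38.9 kb upstream had 3.68 in NS DMSO, 2.79 in NS rottlerin and 3.13 in SW rottlerin, and no SW DMSO peak. NS rottlerin was the only list with a peak at 11.2 kb (2.98) and 7.27 kb upstream (3.97) and in the *FAS* intron 12.8 kb after the TSS (3.33), 3 regions of 6 with a pattern seen in 8.42% of all regions. The scores of these peaks were 13, 39 and 22, which 99.1%, 71.6% and 91.8% of that list reached or passed. With the same number of peaks in each list, *FAS* had 4 regions, 1 of them without an NS DMSO peak. The region 3.16 kb upstream was in the NS DMSO list alone (3.62). The list labelled SW DMSO thus had a peak at 1 of the 6 *FAS* regions and SW rottlerin at 2, while NS rottlerin had 5.

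The TRAIL receptor genes lie close together on chromosome 8 with the decoy receptor genes *TNFRSF10C* and *TNFRSF10D*, whose products bind TRAIL without passing on the death signal. *TNFRSF10A* (23047965 to 23082615, minus strand, ENSG00000104689) had 7 regions. Its promoter region (23082590 to 23082785) held the TSS and had a peak in the NS rottlerin (3.48) and SW rottlerin (3.60) lists. An intronic region 5.50 kb after the TSS was in the NS DMSO list alone, with a column 7 of 4.80.

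3 of the 7 *TNFRSF10A* regions lay nearest to *CHMP7*, a neighbouring gene of membrane remodelling, and 2 of the 3 had a peak in all 4 lists. The region 25.4 kb upstream had 3.84, 4.41, 5.06 and 5.21 in the NS DMSO, SW DMSO, NS rottlerin and SW rottlerin lists, and the one 21.5 kb upstream, in 5′UTR sequence of *CHMP7*, had 4.13, 4.68, 3.93 and 4.46. At 18.5 kb upstream, near the *CHMP7* TSS, the values were 2.83, 3.13 and 2.98 with no SW rottlerin peak. The first of these was higher in SW rottlerin than in NS DMSO by a ratio of 1.36, reached by 9.99% of shared regions. Downstream, nearest to *TNFRSF10D*, a region at 44.1 kb was in the NS rottlerin list alone (3.89) and one at 47.8 kb in the SW rottlerin list alone (4.32).

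*TNFRSF10B* (chromosome 8, 22877646 to 22926544, minus strand, ENSG00000120889) had 4 regions, 3 without an NS DMSO peak. Its promoter region held the TSS and was called in every list but NS DMSO, with 4.08 in SW DMSO, 3.66 in NS rottlerin and 3.75 in SW rottlerin. The nearest NS DMSO peak was 34322 bp away. An intronic region 1.17 kb after the TSS was in the SW rottlerin list alone (3.62), and one 49.0 kb downstream, in 3′UTR sequence of *RHOBTB2*, in the NS rottlerin list alone (4.06). The region 34.6 kb upstream lay 0.747 kb from the TSS of *TNFRSF10C* and had 4.32 in NS DMSO, 5.66 in NS rottlerin and 4.09 in SW rottlerin.

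None of the 5 genes had an NS DMSO peak within 1 kb of its own TSS, where 34.2% of 20163 coding genes did. Peaks at the TSS were found for 2 of the 5 in SW DMSO (35.4% of coding genes), 2 in NS rottlerin (38.5%) and 4 in SW rottlerin (42.5%). Of the 4, the *TNFSF10* peak was among the weakest of its list, with a score of 12 that 99.2% of the list reached or passed. Its -log10 q-value of 1.28 missed the q-value cut-off that the methods give, as did 427 peaks of that list in all. No gene of the 5 had a TSS peak in all 4 lists, the state of 30.4% of coding genes. The lists at the TSS were SW DMSO and SW rottlerin for *FASLG*, SW rottlerin for *TNFSF10*, both rottlerin-labelled lists for *TNFRSF10A*, and every list but NS DMSO for *TNFRSF10B*.

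Where a region was shared with NS DMSO, its column 7 was mostly close to the NS DMSO value. At least 1.5-fold higher were 1 of 11 shared regions in SW DMSO (1.67% of all shared regions), 1 of 13 in NS rottlerin (3.19%) and 3 of 13 in SW rottlerin (4.50%). The *TNFSF10* upstream region was the one in each list, joined in SW rottlerin by the *FASLG* regions 11.8 kb upstream and 49.5 kb downstream. None was 1.5-fold lower, where 2.18%, 1.38% and 1.54% of all shared regions were. The median ratio was 1.13 (range 0.702 to 1.54), 1.09 (0.758 to 2.28) and 1.24 (0.800 to 2.79), beside 0.980, 1.04 and 1.06 over all shared regions. The 3 comparisons share the NS DMSO list.

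**Figure D3:**
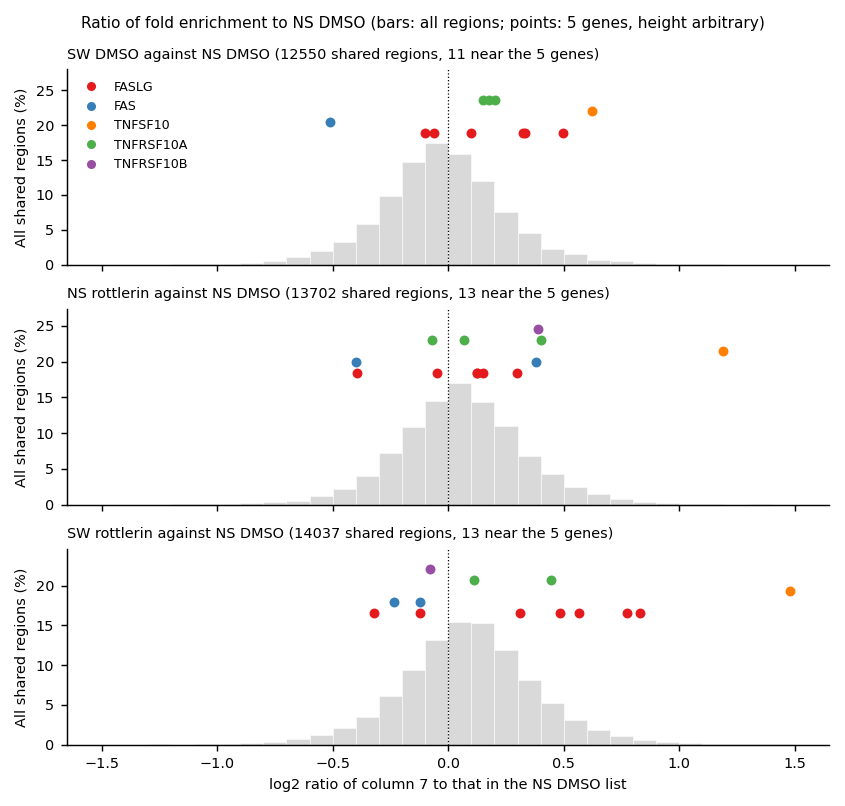
Log2 ratio of column 7 to that in the NS DMSO list, for the lists labelled SW DMSO, NS rottlerin and SW rottlerin, with grey bars for the percentage of all shared regions in bins of 0.1 and a point per region of the 5 genes, coloured by gene and placed above the bars at an arbitrary height. The *TNFSF10* point lies at the far right in NS rottlerin and SW rottlerin, at ratios of 2.28 and 2.79.

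Motif letters were searched on both strands in the central 300 bp of each region. RUNX letters (TGTGGT) were in 16 of 38 regions (42.1%, beside 32.8% of all regions), NFAT (TGGAAA) in 14 (36.8% and 27.9%), those of GATA factors (AGATAA or TGATAA) in 14 (36.8% and 31.5%) and ETS (CCGGAA or CAGGAA) in 16 (42.1% and 44.8%). NFAT and ETS letters share the core GGAA, but the base before it differs, so that a single core cannot be counted for both. In the central 500 bp ETS letters passed the background (65.8% and 58.1%), as they did over whole regions (63.2% and 52.1%), and over whole regions NFAT letters did not (31.6% and 32.5%). By gene, 8 of the 14 regions with NFAT letters were at *FASLG*, 2 at *FAS*, 2 at *TNFRSF10A* and 1 each at *TNFSF10* and *TNFRSF10B*.

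Of the rarer motifs, AP1 (TGACTCA or TGAGTCA) was in 6 regions (15.8% and 13.2%), 3 of them at *FASLG*. The bHLH/ZEB letters CACCTG were in 10 (26.3% and 21.4%), 5 at *FASLG* and 5 at *TNFRSF10A*, and a p53 half-site in 5 (13.2% and 7.43%). An NFkB motif was in 1, at *TNFRSF10B* (2.63% and 4.33%), and EGR letters (GCGTGGGCG or GCGGGGGCG) in 0 (2.51% of all regions). A match in letters is no evidence that the factor was bound. The regions had a median GC content of 45.8% (34.0 to 65.7), beside 46.3% over all regions.

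The genes that act with or beside the ligands and receptors were taken from a list of 20, namely 4 decoy receptors, 4 adaptors, 4 caspases, 5 regulators and 3 related receptors. Every one of the 20 had a region, 87 in all, and 42 of these had no NS DMSO peak (48.3%, beside 53.5% of all regions). There were 5 in every list but NS DMSO (7.08% of all regions), 4 in the NS DMSO list alone (7.83%) and 28 in all 4 (26.6%). Windows overlap in this list, and 5 of the 87 are also regions of the TRAIL receptor genes, through *TNFRSF10C* and *TNFRSF10D*.

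By role, 6 of 13 regions of decoy receptor genes, 5 of 15 of adaptors, 10 of 15 of caspases, 17 of 34 of regulators and 6 of 12 of related receptors had no NS DMSO peak. At the TSS, 8 of the 20 genes had an NS DMSO peak, 10 a SW DMSO, 12 an NS rottlerin and 12 a SW rottlerin peak. The shares of all coding genes were 34.2%, 35.4%, 38.5% and 42.5%. 7 had one in all 4 lists, near the 30.4% of all coding genes. Among them, named after their values were seen, were *FADD*, the adaptor that FAS and the TRAIL receptors recruit, *CASP8*, *FAF1*, *DAXX* and *TNFRSF21*. The *FADD* values were 3.09, 3.76, 3.61 and 3.68, and those of *CASP8*, the initiator caspase of these receptors, 5.36, 5.52, 5.34 and 5.81 in the NS DMSO, SW DMSO, NS rottlerin and SW rottlerin lists.

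*TRAF2*, an adaptor of tumour necrosis factor receptors, had the same lists at its TSS as *TNFRSF10B*, with no NS DMSO peak and a column 7 of 5.66 in SW DMSO, 4.89 in NS rottlerin and 8.40 in SW rottlerin. *TRADD*, another such adaptor, had the lists of *FASLG* (3.30 in SW DMSO and 3.56 in SW rottlerin). *CFLAR*, whose product blocks caspase activation at the receptors, had those of *TNFRSF10A* (3.41 and 3.14), and *TNFRSF1A*, a receptor for tumour necrosis factor, that of *TNFSF10* (2.60). *FAS* shared its lack of a TSS peak with 6 of the 20, namely *TNFRSF10D*, *TNFRSF11B*, *TNFRSF6B*, *RIPK1*, *BID* and *TNFRSF25*. The likeness is over 4 lists only.

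Regions in every list but NS DMSO were also found at *TNFRSF10D*, 1.30 kb from its TSS (4.09, 3.98 and 4.55 in SW DMSO, NS rottlerin and SW rottlerin) and at *TNFRSF1A*, 30.7 kb upstream and nearest to *LTBR* (2.96, 3.63 and 2.78). That of *TNFRSF10C* was the *TNFRSF10B* promoter. In the NS DMSO list alone were regions at *TNFRSF6B*, whose product is a soluble decoy for Fas ligand, at 31.7 kb downstream (3.31), at *TNFRSF21*, 57.1 kb downstream (4.34), and a pair at *DAXX*, 10.1 kb downstream (3.34) and 22.2 kb upstream (3.78).

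**Figure D4:**
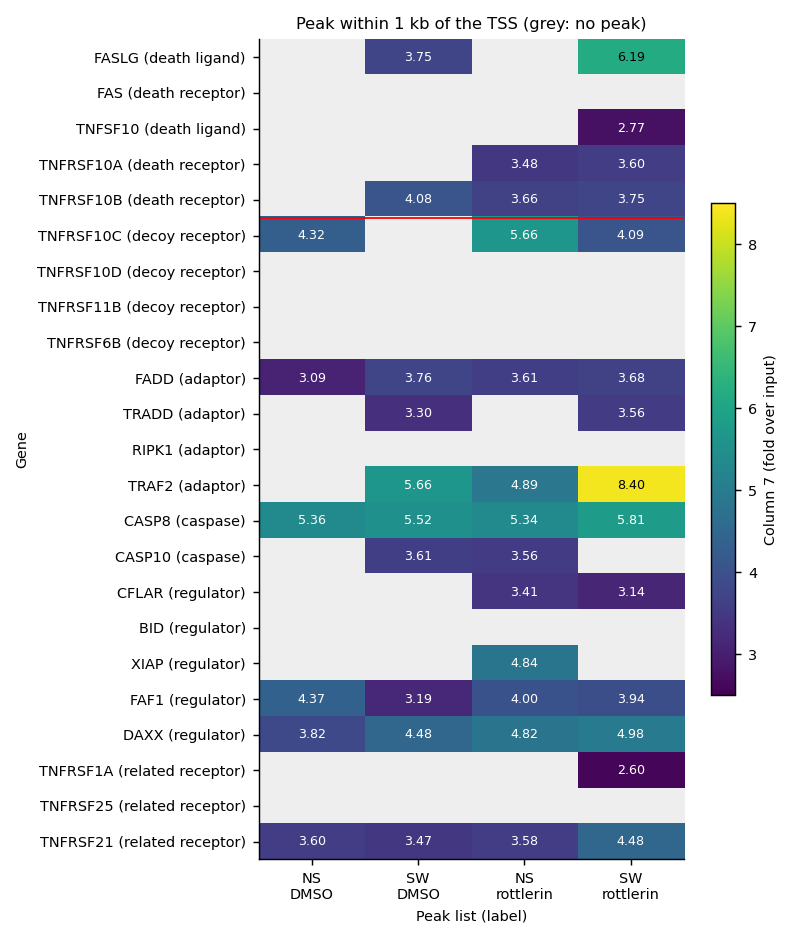
Column 7 of the peak within 1 kb of the TSS for the 5 death ligand and receptor genes (above the line) and the pathway genes reported here (below) in each list, by colour and number, with grey where no peak was called. The NS DMSO column is grey for all 5 ligand and receptor genes, where 34.2% of coding genes had such a peak. *FADD*, *CASP8*, *FAF1*, *DAXX* and *TNFRSF21*, named after their values were seen, have a value in all 4 lists. Of all 20 pathway genes, 8 had an NS DMSO peak at the TSS, 7 had one in all 4 lists (30.4% of coding genes) and 6 had none in any list (55.1%).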

How the data were processed

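FAIRE DNA and total input were sequenced, and per the methods the authors used CutAdapt for adapters, Bowtie2 for alignment to Hg19, Picard against duplicates, and MACS2 (broad peaks) to find enrichment over total input in the DMSO samples. How peaks were called for lists labelled rottlerin is not given in the sources used here. Versions are not given in the sources used here, and the labels also list HTSeq. Each deposited list gives a score (10 times the −log10 of the q-value, truncated), a fold enrichment over input as a ratio (column 7) and the −log10 of the p-value and q-value, as the authors made them. Read counts and depth were not used, and 5 of the 9 samples were not analysed here.

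Peaks on the autosomes, X and Y were joined over the 4 lists (28 joined regions on other contigs were left out), and a region took the highest column 7 of each list. Joining was tested on simulated data. GENCODE release 44 on GRCh37 gave genes. Sequences were read from GRCh37 with pysam 0.24.0 and samtools 1.23.1, and tables were made with Python 3.11.15, pandas 2.3.3 and numpy 2.4.6. Figures were drawn with matplotlib 3.10.9. Presence is the call of a peak in a list, and a ratio of 1.5 or more between values of column 7 was counted as higher or lower. Alternatives were the window, the TSS, the length and threshold of the lists, the joining, the scale and leaving out a list. The genes named are the 5 genes with all of their regions, genes that hold or neighbour these regions, and pathway genes with a region in every list but NS DMSO, in NS DMSO alone, or with the TSS lists of one of the 5. The pathway genes with a TSS peak in all 4 lists were named after their values were seen. Some pathway genes, counted in the totals, and 1 sequence are not reported here. The genes and lists were chosen with earlier results of these data known.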

Additional observations from a re-analysis of the deposited data

How the results depend on the processing

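Counts near the 5 genes moved with the window. Within 25 kb there were 24 regions, 12 without an NS DMSO peak and 2 in every list but NS DMSO, near the 53.5% and 7.08% of all regions. Within 100 kb there were 60, 39 and 11, both counts above those shares. The nearness to the background thus did not hold for the 100 kb window. With the same number of peaks in each list, 5 regions were in the NS DMSO list alone, and 17 of 34 had no NS DMSO peak (50.0%, beside 41.6% of all regions). Where a list had to cover 50% of a region, 5 were in all 4 lists. When each list other than NS DMSO was left out in turn, the number of regions was 33 to 38, those without an NS DMSO peak 16 to 21, those in every list but NS DMSO 5 to 9 (9 without NS rottlerin), those in NS DMSO alone 3 in each case, and those in all remaining lists 10 to 12. Without NS rottlerin *FAS* had 3 regions, 0 of them without an NS DMSO peak. At the higher fold threshold, 0 regions were higher in SW DMSO, and with the central 500 bp ETS letters were in 25 regions (65.8%, above the 58.1% of all regions, where the central 300 bp lay below). Over whole regions NFAT letters were in 12 (31.6%, beside 32.5%). Of 188 values under alternatives, 159 stayed within 1.5 times. No paired analysis was possible because each list comes from 1 library. Depth is unknown, so peaks missed in a shallow library cannot be told apart from closed chromatin.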
